A study of Rattus norvegicus with 14 samples.

Results

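Peritoneal mesotheliomas induced by amosite asbestos (3 tumors) were compared with control peritoneal tissue (3 samples), which together make up 6 of the 14 samples of the series. The samples were chosen by their titles alone, which name an amosite-induced mesothelioma or sham-treated peritoneum. The other 8 samples are mesotheliomas induced by 3 types of multiwalled carbon nanotube (MWCNT B, C and D), and they serve here as the comparison with other fiber-induced tumors. All rats were male Wistar rats, an outbred laboratory strain, and their age is not given in the labels. In the amosite group, fibers suspended in artificial lung medium were injected into the peritoneal cavity 1 time, and each tumor came from a different rat. The labels give amosite tumor 1 as epithelioid, amosite tumor 2 as biphasic and amosite tumor 3 as sarcomatoid, so that within this group the tumor type and the single animal cannot be told apart. The controls are called sham-treated in the labels and untreated in the study's methods. Tumors that form after direct injection bypass the inhaled route, and the array of a whole tumor piece also measures its blood vessels, immune cells and attached tissue.

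Amosite is a stiff, iron-rich amphibole asbestos whose long fibers cannot be fully engulfed by macrophages and persist in the peritoneum and pleura. Such fibers are known to provoke frustrated phagocytosis, iron-catalysed oxidants, inflammasome activation with release of interleukin-1, and a lasting macrophage and giant cell reaction. Malignant mesothelioma arises from the mesothelium, the single layer of keratin-positive cells that lines the body cavities, and grows in an epithelioid, a sarcomatoid or a mixed, biphasic form.

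Expression was measured on Affymetrix rat genome arrays, 1 array for each sample, and levels are given as log2(signal + 1), where a step of 1 is a doubling. Values of single samples are listed in the order of replicates 1, 2 and 3. Differences are amosite minus control with their standard error, and adjusted p-values are Benjamini-Hochberg values from limma over all probe sets. The spread behind both was pooled within groups over all 14 arrays, the MWCNT tumors included. Genes that changed more than 2-fold with an adjusted p under 0.05 were called upregulated or downregulated. With 3 arrays in each group, the number of arrays limits the precision. The median signal of an array was 154, 141 and 130 in the amosite tumors, against 96.9, 104 and 101 in the controls. As a measure of RNA integrity, the excess of 3' over 5' signal on the log2 scale was 0.40 to 0.60 in amosite tumors and -1.24 to -0.65 in controls for beta-actin and 0.80 to 0.94 in amosite tumors and 1.70 to 3.91 in controls for hexokinase. For GAPDH it was 0.01 to 0.12 in amosite tumors and 0.10 to 0.16 in controls. The part of these technical differences in the results was not tested.

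The labels were checked against the markers of the tissues. Of 15 measured mesothelial markers, 8 were upregulated in the amosite tumors. The controls carried the signal of body wall skeletal muscle. The 42 measured muscle markers held 0.0304%, 0.0503% and 0.0659% of the summed signal of the amosite arrays, against 14.2%, 14.3% and 14.7% of that of the control arrays. Amosite tumor 1 carried genes of the exocrine pancreas, an organ that borders the peritoneal cavity. The 27 measured pancreas markers held 5.63% of the signal of amosite tumor 1, 0.0153% of that of tumor 2 and 0.0111% of that of tumor 3, against 0.00718%, 0.00687% and 0.00758% in the controls. Results are therefore given with and without amosite tumor 1. In bulk tissue, fewer cells of a type and less RNA per cell cannot be told apart, and the share of tumor, stromal and muscle cells in each sample was not measured.

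**Figure D1:**
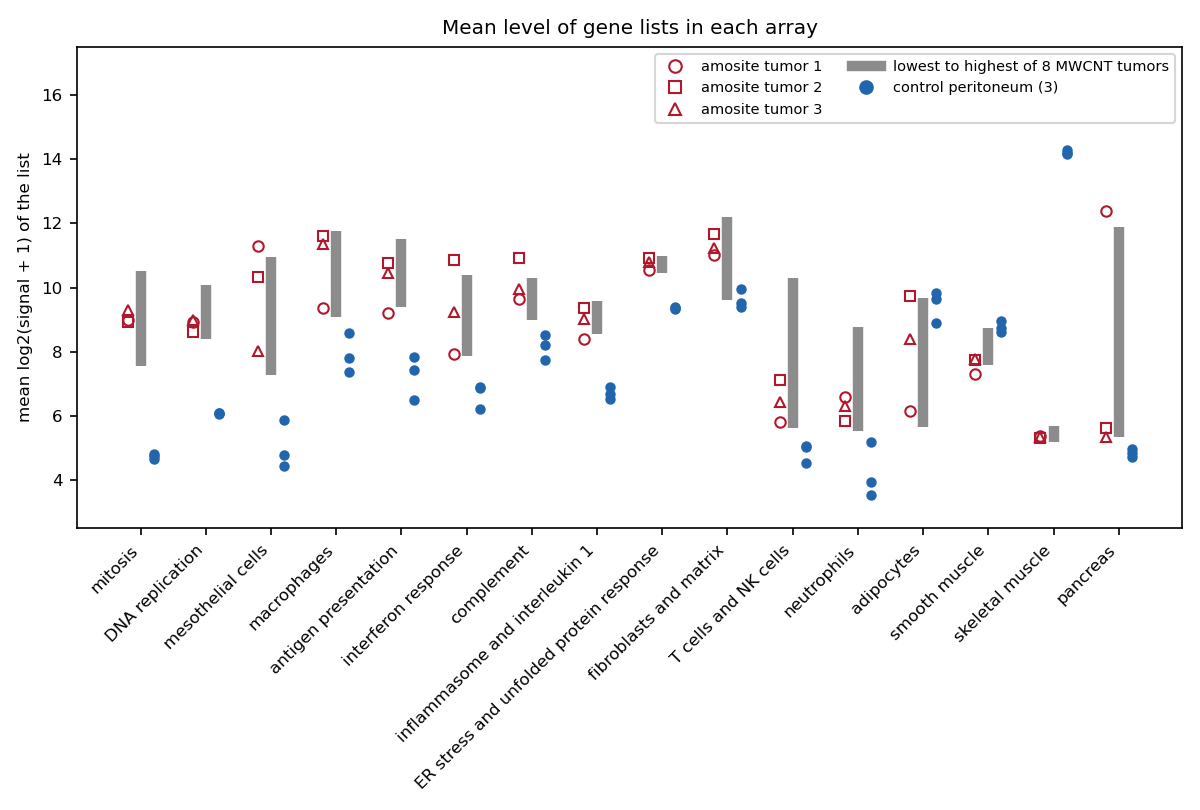
Mean log2(signal + 1) of 16 gene lists (vertical axis) in each array, with the 3 amosite tumors as red open symbols, the range of the 8 MWCNT tumors as a grey bar and the 3 controls as blue points. The lists of mitosis, DNA replication and macrophages lie above the controls in all 3 amosite tumors, the skeletal muscle list lies far below, and the pancreas list is high in amosite tumor 1 alone among the 3.

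The amosite tumors differed from the controls over a large part of the transcriptome. Of 31042 probe sets, 6928 (22.3%) were upregulated and 2953 (9.51%) were downregulated. Counted as 14217 genes, each represented by its brightest probe set, 3623 (25.5%) were upregulated and 1336 (9.4%) were downregulated, and these shares are the background against which the counts of each gene group below are read. The 3 amosite values lay wholly above or wholly below the 3 control values for 9268 genes (65.2%). The amosite tumors varied more among themselves than the controls did, with a median standard deviation over genes of 0.351 on the log2 scale in amosite tumors and 0.149 in controls.

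The balance of upregulated and downregulated genes depended on the scaling. As deposited, 73.06% of called genes were upregulated and the median difference of all genes was 0.46. With each array centred on its median, 2183 genes were upregulated and 2400 downregulated (47.63% upregulated), and the median difference was -0.03. After quantile normalization these were 2511 and 1886 genes (57.11%), and 0.11. No gene was called in opposite directions in any of these settings. Without amosite tumor 1, 3549 genes were upregulated and 1359 downregulated, of which 4394 carried the same call in both analyses. A change is called stable below where a gene kept its call without amosite tumor 1, with log2 signals below 5 raised to 5, after centring and after quantile normalization. By this rule 1940 genes (13.6%) were upregulated and 1126 (7.92%) were downregulated.

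The 12 largest stable rises were led by Wt1, Msln and Krt8. Wilms' tumor 1 (Wt1), a transcription factor of the mesothelium, had levels of 13.39, 11.61 and 11.40 in amosite tumors, against 3.62, 3.26 and 5.54 in controls. Mesothelin (Msln), a surface glycoprotein shed by mesothelioma cells, had levels of 12.83, 13.03 and 11.41 in amosite tumors, against 4.82, 3.50 and 6.64 in controls. All 3 tumors stood far above all 3 controls for both genes, with differences of 8.0 ± 1.09, adjusted p = 0.0002 for Wt1 and 7.44 ± 1.30, adjusted p = 0.001 for Msln. The controls were near background there, and with the floor at 5 the differences were 6.96 and 6.88. The next in order were keratin 8 (Krt8, 7.59), ezrin (Ezr, 6.35), which links actin to the membrane of microvilli, the interleukin-33 receptor (Il1rl1, 8.34), cadherin 11 (Cdh11, 6.02) and Ildr2 (6.17). Protein tyrosine kinase 7 (Ptk7), a Wnt co-receptor, rose by 5.65, uroplakin 1b (Upk1b) by 6.35, syndecan 1 (Sdc1) by 5.62, the B cell chemokine Cxcl13 by 5.69 and the macrophage glycoprotein Gpnmb by 5.61.

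The 12 largest stable falls were those of genes of skeletal muscle. The muscle phosphoglycerate mutase (Pgam2) had levels of 5.07, 4.42 and 4.62 in amosite tumors, against 19.33, 19.36 and 19.28 in controls, and myosin heavy chain 4 (Myh4), the fast myosin, had levels of 4.66, 4.58 and 4.61 in amosite tumors, against 17.39, 17.38 and 17.41 in controls. The groups were separated by more than 12 log2 units, with differences of -14.62 ± 0.28, adjusted p = 1.4e-11 for Pgam2 and -12.78 ± 0.22, adjusted p = 1.1e-11 for Myh4. The others were Cmya5 (-14.16), the calcium-binding protein of the sarcoplasmic reticulum Hrc (-12.84), the calcium channel subunit Cacng1 (-12.81), the muscle cytochrome oxidase subunit Cox8b (-13.45), myosin light chain 2 (Myl2, -13.84), alpha-actinin 2 (Actn2, -13.39), Asb11 (-12.21), Smpx (-12.02), triadin (Trdn, -12.31) and hemojuvelin (Hjv, -11.86).

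**Figure D2:**
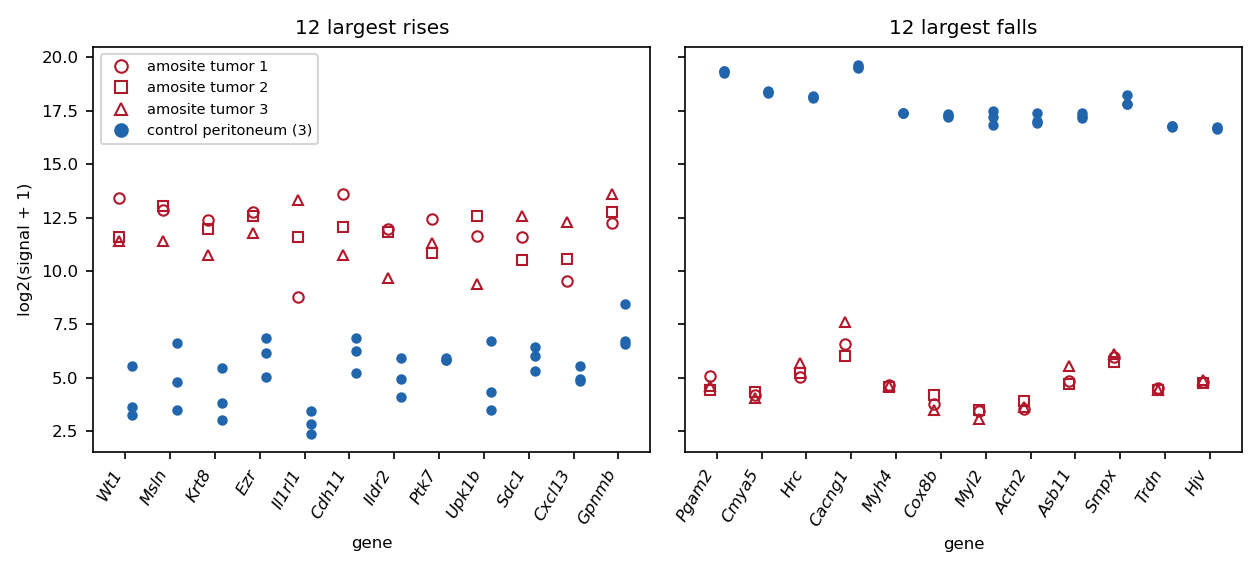
Log2(signal + 1) of the 12 largest stable rises (left) and the 12 largest stable falls (right), with the 3 amosite tumors as red open symbols and the 3 controls as blue points. Lack of overlap between the groups was a condition for choosing these 24 genes, and it held for 65.2% of all genes.

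Loss of muscle signal covered nearly the whole list. Of 42 measured skeletal muscle genes, 40 were downregulated, all of them stable, against 9.4% of all genes, and the median difference of the list was -8.99. The exceptions were tropomyosin 2 (Tpm2), which smooth muscle and fibroblasts also express and which was upregulated (1.79 ± 0.61, adjusted p = 0.034), and desmin (Des), also a smooth muscle protein, with levels of 9.22, 11.69 and 12.54 in amosite tumors, against 13.57, 13.69 and 13.60 in controls. Desmin did not pass the test (-2.47 ± 1.16, adjusted p = 0.11), and its lowest value was in tumor 1. The rise of Tpm2 was not stable: it was 1.30 after centring (adjusted p = 0.12) and had an adjusted p of 0.051 with the floor. The other probe set of Tpm2 had levels of 6.46, 6.23 and 6.45 in amosite tumors, against 16.83, 16.86 and 16.79 in controls (-10.45 ± 0.20, adjusted p = 1.4e-11). With the probe set of the largest fold change taken for each gene, 41 of the 42 genes were downregulated, against 10.6% of all genes. The muscle glucose transporter Slc2a4 fell (-6.74 ± 0.60, adjusted p = 1.1e-05), as did the muscle phosphofructokinase Pfkm (-4.29 ± 0.27, adjusted p = 6.8e-07).

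The proximal promoter of Pgam2 is shown because this gene had the largest fall. The 250 bases before its start, from RefSeq on build GRCr8, hold 2 copies of the E-box CAGCTG, which reads the same on both strands and is printed in capitals.
Pgam2 (chr14:84897875-84898124, minus strand): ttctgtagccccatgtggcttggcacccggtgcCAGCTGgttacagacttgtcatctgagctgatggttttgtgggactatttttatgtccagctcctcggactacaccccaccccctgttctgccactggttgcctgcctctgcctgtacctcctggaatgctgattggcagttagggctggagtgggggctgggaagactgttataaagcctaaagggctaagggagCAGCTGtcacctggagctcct
This motif, a sequence bound by myogenic factors such as MyoD, is in 13 of 36 skeletal muscle promoters found (36.1%) and in 3552 of 27457 promoters of all genes (12.9%). The match describes the sequence and is no test of binding.

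Other resident tissue changed less. Of 18 measured adipocyte genes, 2 were downregulated. These were Slc2a4, which muscle also expresses, and glycerol-3-phosphate dehydrogenase (Gpd1, -3.90 ± 1.11, adjusted p = 0.015), whose call was lost without amosite tumor 1. Adiponectin (Adipoq), the adipocyte hormone, had levels of 7.72, 11.46 and 9.36 in amosite tumors, against 9.89, 11.07 and 11.14 in controls, and perilipin 1 (Plin1), the coat protein of fat droplets, had levels of 5.14, 9.96 and 8.24 in amosite tumors, against 8.59, 9.84 and 10.03 in controls. Tumor 1 was the lowest and tumor 2 the highest of the amosite tumors for both, and tumors and controls overlapped. Of 12 measured smooth muscle genes, 4 were downregulated (Lmod1, Synpo2, Myh11 and Smtn) and 1 was upregulated, alpha smooth muscle actin (Acta2, 2.57 ± 0.26, adjusted p = 2.5e-05), which activated fibroblasts also express. Of 15 endothelial genes 0 were called in limma and 1 had an unadjusted p below 0.05, and CD31 (Pecam1) had levels of 7.38, 8.77 and 8.64 in amosite tumors, against 8.70, 8.90 and 9.26 in controls. No endothelial gene was called under the alternatives without amosite tumor 1 or with the floor, whereas centring gave 1 lower call.

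Mesothelial identity genes rose, with large differences between tumors. The called members were Wt1, Msln, Krt8, Upk1b, keratin 18 (Krt18, 7.82), keratin 19 (Krt19, 7.28), N-cadherin (Cdh2, 4.74) and Gpm6a (4.03), and 6 of the 8 were stable. Keratin 19 had levels of 12.89, 10.35 and 7.06 in amosite tumors, against 0.07, 2.89 and 5.50 in controls, highest in the epithelioid and lowest in the sarcomatoid tumor, and its call was lost without tumor 1 (adjusted p = 0.13). Keratin 7 (Krt7) had levels of 11.15, 10.39 and 5.87 in amosite tumors, against 3.33, 2.75 and 2.71 in controls, and basonuclin 1 (Bnc1), a transcription factor of mesothelial cells, had levels of 11.48, 9.06 and 5.40 in amosite tumors, against 2.06, 1.86 and 4.41 in controls. Both stood above all controls in each tumor, and neither passed the test (adjusted p = 0.05 and 0.055). Calretinin (Calb2), used in pathology to recognise mesothelioma, had levels of 7.72, 7.04 and 7.34 in amosite tumors, against 7.27, 7.52 and 7.36 in controls, with overlapping groups (-0.02 ± 0.20, adjusted p = 0.96).

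Desmosome and basal keratin genes were also upregulated: 6 of 12 measured members were called, and 3 were stable. Keratin 14 (Krt14), a basal epithelial keratin, had levels of 10.45, 12.76 and 7.21 in amosite tumors, against 0.01, 1.11 and 0.01 in controls. Plakophilin 1 (Pkp1), a plaque protein of desmosomes, had levels of 8.41, 9.74 and 10.71 in amosite tumors, against 2.82, 0.08 and 0.07 in controls. Controls were at background for both, so that the differences of 9.76 for Krt14 and 8.63 for Pkp1 were 5.14 (adjusted p = 0.11) and 4.62 (adjusted p = 0.0071) with the floor at 5. Desmoglein 2 (Dsg2, 6.42), desmoplakin (Dsp, 5.43), Perp (5.44) and desmocollin 2 (Dsc2, 2.83) were also called. Keratin 5 (Krt5), the usual partner of keratin 14, had levels of 5.68, 5.50 and 5.45 in amosite tumors, against 5.68, 5.72 and 5.34 in controls, and the basal cell factor Tp63 had levels of 4.89, 4.92 and 4.99 in amosite tumors, against 4.92, 4.84 and 4.91 in controls. These levels overlapped between the groups. A dimmer probe set of Tp63 had levels of 4.08, 3.31 and 4.32 in amosite tumors, against 6.27, 6.58 and 6.44 in controls and fell (-2.53 ± 0.40, adjusted p = 0.00051), so that the probe sets of this gene disagree.

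Mitosis was the 1 list of 43 whose measured genes were all called in the same direction. All 33 measured mitosis genes were upregulated, 32 of them stable, against 25.5% of all genes, with a median difference of 4.54 (4.05 after centring, 4.61 without tumor 1). Cyclin-dependent kinase 1 (Cdk1), which drives entry into mitosis, had levels of 10.55, 10.53 and 10.71 in amosite tumors, against 5.67, 5.97 and 5.25 in controls. Topoisomerase 2 alpha (Top2a), which untangles sister chromosomes, had levels of 10.94, 10.48 and 11.03 in amosite tumors, against 6.18, 6.22 and 6.15 in controls. The 3 tumors lay within 0.6 log2 units of each other for both genes and far above the controls, with differences of 4.96 ± 0.49, adjusted p = 2.4e-05 for Cdk1 and 4.63 ± 0.47, adjusted p = 2.7e-05 for Top2a. Survivin (Birc5, 4.60), the mitotic kinases Aurkb (4.85) and Plk1 (4.67), cyclin B2 (Ccnb2, 4.04), the proliferation marker Mki67 (4.85) and the motor proteins Kif20a (5.05) and Cenpe (5.96) were of similar size. The mitotic transcription factor Foxm1 had levels of 7.01, 7.0 and 7.29 in amosite tumors, against 1.77, 3.18 and 2.41 in controls (4.65 ± 0.52, adjusted p = 5.2e-05). The call that was not stable was that of the centromere histone Cenpa (5.03, and 0.93 with the floor).

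Genes of DNA replication rose beside them, 29 of 31 measured members, 25 of them stable. Thymidylate synthase (Tyms), which makes the thymidine nucleotide, had levels of 8.99, 8.43 and 8.42 in amosite tumors, against 2.96, 4.33 and 4.17 in controls (4.79 ± 0.61, adjusted p = 0.00013). The replicative helicase subunits Mcm3, Mcm6, Mcm2 and Mcm5 rose by 4.88, 4.62, 3.03 and 2.94, cyclin E1 (Ccne1) by 4.03, and the transcription factors E2f1 and E2f8 by 4.17 and 4.61. Their relative E2f2 was the member that fell, with levels of 6.70, 7.54 and 6.77 in amosite tumors, against 9.21, 8.80 and 8.92 in controls (-1.97 ± 0.62, adjusted p = 0.024), and this call was lost without tumor 1 (adjusted p = 0.067). Ribonucleotide reductase 1 (Rrm1) missed the fold threshold (0.87 ± 0.29, adjusted p = 0.032).

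Proximal promoters of 4 of these genes are shown because the 2 lists moved together. The first 3 are of mitosis genes, with capitals on TTTGAA or its other strand TTCAAA, the letters of the cell cycle genes homology region, and on CCAAT or its other strand ATTGG. The last is of Mcm5, with capitals on the E2F motif TTTCCCGC or its other strand GCGGGAAA. Each is 250 bases before the start of the gene, from RefSeq on build GRCr8.
Ccnb2 (chr8:79981659-79981908, minus strand): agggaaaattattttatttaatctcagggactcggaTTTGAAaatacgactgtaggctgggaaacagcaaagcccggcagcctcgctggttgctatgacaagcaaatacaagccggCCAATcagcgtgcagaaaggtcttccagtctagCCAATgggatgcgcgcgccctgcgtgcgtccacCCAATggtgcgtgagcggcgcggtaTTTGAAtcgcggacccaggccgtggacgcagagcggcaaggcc
Top2a (chr10:84473094-84473343, minus strand): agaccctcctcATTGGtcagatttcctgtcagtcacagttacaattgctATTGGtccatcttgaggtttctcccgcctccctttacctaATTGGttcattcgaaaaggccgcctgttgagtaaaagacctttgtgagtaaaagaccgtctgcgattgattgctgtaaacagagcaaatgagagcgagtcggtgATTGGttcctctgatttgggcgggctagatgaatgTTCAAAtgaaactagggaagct
Cdk1 (chr20:19265043-19265292, plus strand): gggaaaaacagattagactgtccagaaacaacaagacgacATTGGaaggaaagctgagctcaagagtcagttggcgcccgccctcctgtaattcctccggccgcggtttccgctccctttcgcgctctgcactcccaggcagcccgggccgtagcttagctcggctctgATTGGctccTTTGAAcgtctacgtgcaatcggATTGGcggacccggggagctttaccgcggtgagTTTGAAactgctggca
Mcm5 (chr19:13488563-13488812, plus strand): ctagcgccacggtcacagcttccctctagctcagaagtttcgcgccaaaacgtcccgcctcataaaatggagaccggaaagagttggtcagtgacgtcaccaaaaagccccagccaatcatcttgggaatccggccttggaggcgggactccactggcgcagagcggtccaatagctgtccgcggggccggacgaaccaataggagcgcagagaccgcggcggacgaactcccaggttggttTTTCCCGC
The first motif is in 12 of 28 mitosis promoters found (42.9%) and in 4732 of 27457 promoters of all genes (17.2%). CCAAT is in 21 of the 28 (75%) and in 9920 of all (36.1%), and in 15 of 25 promoters of replication genes (60%). The E2F motif is in 3 of these 25 (12%) and in 248 of all (0.903%). The 2 motifs of the mitosis genes do not share bases in the sequences printed, and a match of letters is a description, not a site in use.

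**Figure D3:**
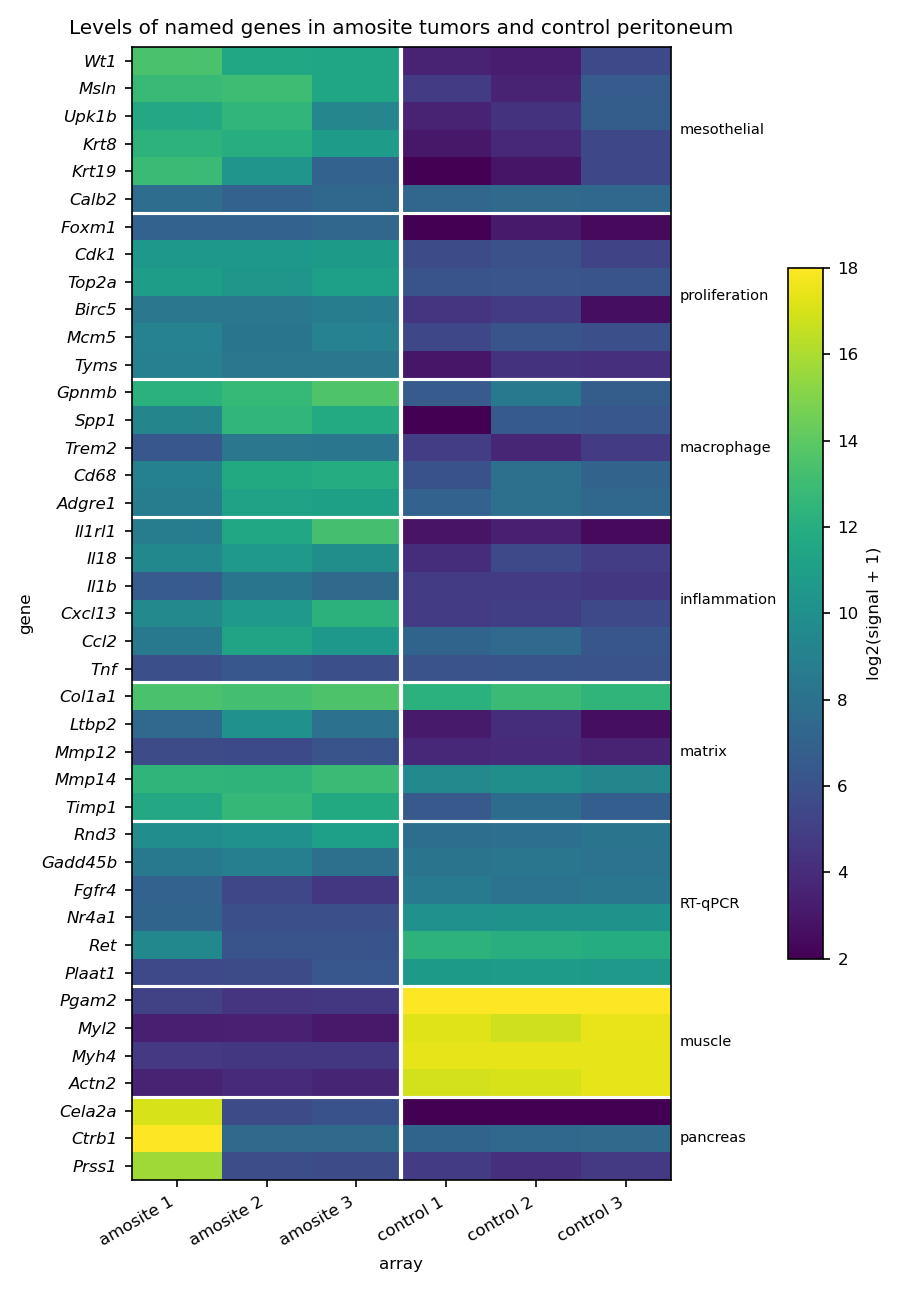
Log2(signal + 1), as colour from 2 to 18, of 41 named genes (rows, grouped by role) in the 3 amosite tumors (left) and the 3 controls (right), with levels beyond that range drawn at its ends. Mesothelial genes other than Calb2 and the proliferation and macrophage genes are brighter in the tumors. Muscle genes are brighter in the controls, and the pancreas genes are bright in amosite tumor 1 alone.

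Of 19 measured genes of the inflammasome and the interleukin-1 family, 13 were upregulated, 10 of them stable. Whether this was a response to the fiber was not tested. The listed genes Nlrp3, Nlrp1a and Il18rap had no probe set annotated to them alone and were not measured. The receptor Il1rl1, which binds interleukin-33, had levels of 8.77, 11.60 and 13.30 in amosite tumors, against 2.84, 3.43 and 2.38 in controls, lowest in tumor 1 and highest in tumor 3. Interleukin-18 (Il18), which caspase-1 activates, had levels of 9.49, 10.62 and 9.90 in amosite tumors, against 4.07, 5.51 and 4.89 in controls, and interleukin-1 beta (Il1b) had levels of 6.59, 8.22 and 7.51 in amosite tumors, against 4.77, 4.85 and 4.59 in controls. The tumors lay above the controls throughout, with differences of 8.34 ± 1.49, adjusted p = 0.0011 for Il1rl1, 5.18 ± 0.66, adjusted p = 0.00013 for Il18 and 2.71 ± 0.81, adjusted p = 0.019 for Il1b. The pore-forming protein gasdermin D (Gsdmd, 3.46), caspase-1 (Casp1, 2.52), caspase-4 (Casp4, 2.09), the receptors Il1r1 (2.26) and Il1rap (2.72), the adaptors Myd88 (1.95) and Pycard (1.78) and the ATP receptor P2rx7 (1.27) were upregulated too. Interleukin-33 (Il33), an alarm signal released from damaged cells, had levels of 7.09, 11.69 and 11.51 in amosite tumors, against 8.13, 8.81 and 8.82 in controls. It was below the controls in tumor 1 and above them in tumors 2 and 3, and it passed the test without tumor 1 (3.01, adjusted p = 0.019) and not with it (adjusted p = 0.32). Interleukin-1 alpha (Il1a, 0.92 ± 0.37, adjusted p = 0.068) and the receptor antagonist Il1rn (0.96 ± 0.78, adjusted p = 0.34) were not called.

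Tumor necrosis factor (Tnf) itself was not called, while part of its pathway was upregulated. Tnf had levels of 5.88, 6.37 and 5.90 in amosite tumors, against 6.12, 6.17 and 6.10 in controls, with overlapping groups (-0.08 ± 0.38, adjusted p = 0.88). Of 20 measured genes of the TNF and NF-kB list, 10 were upregulated and 7 were stable. The adhesion molecule Vcam1 had levels of 10.71, 10.95 and 13.40 in amosite tumors, against 6.36, 7.0 and 7.24 in controls (4.82 ± 0.57, adjusted p = 7.7e-05). The kinase Ripk1, downstream of the TNF receptor, had levels of 8.60, 8.98 and 9.23 in amosite tumors, against 6.19, 6.61 and 6.43 in controls (2.53 ± 0.19, adjusted p = 3.1e-06). The groups did not overlap for either gene. Icam1 (3.19), Bcl3 (3.47), Nfkbiz (3.17), the receptors Tnfrsf1a (1.54) and Tnfrsf1b (3.23), Nfkb1 (1.45) and its inhibitor Nfkbia (1.44) were also upregulated. Rela missed the fold threshold by little (0.99 ± 0.18, adjusted p = 0.0011).

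Iron and oxidant genes changed in part. Of 21 measured iron genes, 5 were upregulated and 1 was downregulated. These shares are close to those of all genes. Heme oxygenase 1 (Hmox1), which frees iron from heme, had levels of 11.996, 10.52 and 11.86 in amosite tumors, against 7.28, 7.94 and 7.35 in controls (3.94 ± 0.66, adjusted p = 0.00074), with all tumors above all controls. The ferroxidases hephaestin (Heph, 3.14) and ceruloplasmin (Cp, 1.88), the reductase Cybrd1 (2.33) and the hemopexin receptor Lrp1 (1.16) rose. Ferrochelatase (Fech), the last enzyme of heme synthesis, fell (-1.53 ± 0.25, adjusted p = 0.00066). The transferrin receptor (Tfrc) had levels of 11.38, 9.79 and 11.78 in amosite tumors, against 11.96, 11.89 and 11.83 in controls and the iron exporter ferroportin (Slc40a1) had levels of 9.10, 7.88 and 8.84 in amosite tumors, against 7.65, 7.77 and 7.42 in controls, and neither passed the test.

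Of 25 measured antioxidant genes regulated by Nrf2, 8 were upregulated, 4 of them stable, and 1, the malic enzyme Me1, was downregulated (-2.28 ± 0.83, adjusted p = 0.043). After centring 4 of the 25 were higher and 2 lower, against 2183 and 2400 of all 14217 genes. Transketolase (Tkt, 3.11 ± 0.37, adjusted p = 8.4e-05), glutathione S-transferase pi (Gstp1, 2.51), the glutamate-cysteine ligase Gclc (2.24) and glutathione reductase (Gsr, 1.68) carried stable rises. The Nrf2 gene itself (Nfe2l2) rose by 1.42. NAD(P)H quinone dehydrogenase 1 (Nqo1), a standard readout of the pathway, had levels of 9.23, 9.50 and 12.85 in amosite tumors, against 8.92, 9.15 and 8.70 in controls. It was high in the sarcomatoid tumor 3 and close to the controls in the other two (adjusted p = 0.26). Among 14 measured genes of oxidant production, 5 were upregulated: the phagocyte oxidase subunits Cyba (3.41 ± 0.27, adjusted p = 4.4e-06) and Cybb (2.73 ± 0.63, adjusted p = 0.005), Rac2 (2.44), Nox1 (1.95) and xanthine dehydrogenase (Xdh, 1.85). Inducible nitric oxide synthase (Nos2) had levels of 6.42, 6.50 and 6.64 in amosite tumors, against 6.24, 6.33 and 6.12 in controls and was not called.

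Macrophage genes rose in 17 of 20 measured members, 12 of them stable. Without tumor 1, 19 of the 20 rose. The lysosomal glycoprotein Cd68 had levels of 9.01, 11.70 and 11.90 in amosite tumors, against 6.01, 7.89 and 7.07 in controls, and the Fc receptor Fcgr3a, which binds antibody-coated particles, had levels of 8.55, 10.72 and 10.81 in amosite tumors, against 4.87, 5.67 and 5.60 in controls. Tumors 2 and 3 were higher than tumor 1, and all 3 were above all controls, with differences of 3.88 ± 0.78, adjusted p = 0.0024 for Cd68 and 4.64 ± 0.81, adjusted p = 0.00094 for Fcgr3a. Aif1 (3.48), Tyrobp (3.22), Adgre1 (2.92), Cd14 (2.81), lysozyme 2 (Lyz2, 2.78) and the growth factor receptor Csf1r (2.10) were called as well. The scavenger receptors of resident macrophages were not called with all arrays: Cd163 had levels of 7.25, 10.39 and 8.87 in amosite tumors, against 7.02, 7.94 and 7.78 in controls and the mannose receptor Mrc1 had levels of 9.10, 12.17 and 11.78 in amosite tumors, against 8.54, 9.47 and 8.76 in controls. Without tumor 1, Mrc1 was called (3.05, adjusted p = 0.022) and Cd163 was not (2.05, adjusted p = 0.39).

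Genes of multinucleated giant cells and osteoclasts followed in 9 of 14 measured members. Osteopontin (Spp1), a secreted matrix protein used as a mesothelioma marker in serum, had levels of 9.31, 12.52 and 11.80 in amosite tumors, against 0.03, 6.55 and 6.33 in controls. Control 1 was at background while the other controls stood above 6, and the difference of 6.90 ± 1.76, adjusted p = 0.0086 was 5.25 with the floor. Gpnmb had levels of 12.23, 12.74 and 13.61 in amosite tumors, against 6.57, 8.45 and 6.74 in controls (5.61 ± 0.57, adjusted p = 2.9e-05). Tartrate-resistant acid phosphatase (Acp5, 3.93), the lipid receptor Trem2 (3.19), cathepsin K (Ctsk, 3.27) and the RANK receptor (Tnfrsf11a, 2.48) rose. The osteoclast transcription factor Nfatc1, which skeletal muscle also expresses, fell (-1.77 ± 0.48, adjusted p = 0.012).

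Of 16 measured mast cell genes, 6 were upregulated and 1 was stable, the protease Mcpt10, with levels of 9.74, 8.88 and 9.24 in amosite tumors, against 0.01, 0.25 and 0.01 in controls and a difference of 4.29 with the floor (adjusted p = 0.027). The defining mast cell genes Cpa3 (9.96, 9.39 and 10.0 in amosite tumors, against 8.50, 10.05 and 9.15 in controls) and Cma1 (7.40, 6.30 and 8.32 in amosite tumors, against 7.36, 9.11 and 8.08 in controls) overlapped between the groups. Of 17 T cell and natural killer cell genes, 4 were upregulated and 0 were stable. With the probe set of the largest fold change for each gene, 8 of the 17 were upregulated, against 29% of all genes. The T cell receptor component Cd3e had levels of 5.64, 7.14 and 6.58 in amosite tumors, against 5.43, 5.45 and 5.53 in controls and was not called, while Cd4 (2.12 ± 0.66, adjusted p = 0.024), which rat macrophages also carry, was. Of 11 B cell and plasma cell genes, the called ones were Sdc1, which epithelial cells also express, and Prdm1 (2.85). B cell antigen Ms4a1 had levels of 4.04, 4.98 and 4.55 in amosite tumors, against 3.68, 4.03 and 4.64 in controls, below or near 5 in every sample. Of 8 neutrophil genes 0 were called in limma and 3 had an unadjusted p below 0.05, with S100a8 at levels of 8.47, 4.33 and 6.43 in amosite tumors, against 2.15, 4.28 and 0.05 in controls, and 1 (Fcnb) was called without tumor 1.

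Chemokine genes rose in 11 of 30 measured members, against 25.5% of all genes, and 5 were stable. After centring 7 of the 30 were higher and 1 was lower, and with the floor 5 were higher. Of all 14217 genes, 2183 were higher after centring and 3089 with the floor. Cxcl13, which attracts B cells, had levels of 9.52, 10.58 and 12.31 in amosite tumors, against 4.86, 4.94 and 5.54 in controls, and Cxcl16, a membrane-bound ligand that also takes up lipids, had levels of 10.66, 10.86 and 10.61 in amosite tumors, against 5.96, 6.75 and 6.73 in controls. The monocyte attractant Ccl2 had levels of 8.49, 11.35 and 10.55 in amosite tumors, against 7.16, 7.48 and 6.31 in controls. The groups did not overlap for these genes, with differences of 5.69 ± 0.96, adjusted p = 0.00081 for Cxcl13, 4.23 ± 0.56, adjusted p = 0.00015 for Cxcl16 and 3.15 ± 0.90, adjusted p = 0.016 for Ccl2. Ccl5 (4.17), Cxcl10 (4.32) and the neutrophil attractant Cxcl1 (4.92) were also called. Ccl7 had levels of 5.27, 9.93 and 9.79 in amosite tumors, against 5.73, 5.99 and 5.48 in controls, with tumor 1 below the controls and the other two above, and it passed without tumor 1 (adjusted p = 0.0054) and not with it (adjusted p = 0.1). The lymphoid chemokine Ccl21 had levels of 4.63, 5.42 and 6.55 in amosite tumors, against 8.71, 9.77 and 9.68 in controls, lower in every tumor, and was not called (adjusted p = 0.1).

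Complement was raised in 9 of 17 measured genes, 8 of them stable. The central component C3 had levels of 11.99, 10.32 and 10.25 in amosite tumors, against 3.91, 5.81 and 4.40 in controls (6.14 ± 1.22, adjusted p = 0.0022). The receptor C3ar1 (3.68), the lectin pathway protease Masp1 (3.32), the classical pathway genes C1qa, C1qb, C1qc, C1r and C1s (2.52, 3.07, 2.95, 2.19 and 1.79) and the receptor C5ar1 (2.27) rose. The inhibitor Cd55 had levels of 10.51, 12.40 and 11.11 in amosite tumors, against 10.81, 10.58 and 10.66 in controls, with overlapping groups.

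Interferon-induced genes rose in 13 of 20 measured members and, without tumor 1, in 18. Tetherin (Bst2), which holds budding viruses at the cell surface, had levels of 13.69, 13.20 and 13.36 in amosite tumors, against 8.32, 8.94 and 8.87 in controls. Isg15, a ubiquitin-like protein, had levels of 6.66, 11.97 and 8.94 in amosite tumors, against 4.02, 5.61 and 4.80 in controls. All tumors lay above all controls, closely grouped for Bst2 (4.71 ± 0.33, adjusted p = 1.8e-06) and spread for Isg15 (4.38 ± 1.25, adjusted p = 0.015), where tumor 2 was the highest and tumor 1 the lowest. The same order, tumor 2 above tumor 3 above tumor 1, held for Irf7 (7.59, 13.15 and 11.20 in amosite tumors, against 6.08, 7.55 and 7.66 in controls) and Mx1 (8.27, 13.47 and 11.56 in amosite tumors, against 7.17, 7.38 and 7.20 in controls). Mx1 passed without tumor 1 (adjusted p = 0.019) and not with it (adjusted p = 0.063). Irf1 (2.29), Gbp2 (3.31) and Oas1a (3.98) were stable. Ifit1 was not called (-0.78 ± 0.26, adjusted p = 0.033).

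The promoter of Bst2 is shown because Bst2 has the largest rise in the interferon list. Capitals mark a pair of GAAA with any 2 bases between them, the letters of the interferon response element, in the 250 bases before the start on build GRCr8 of RefSeq. The other strand (TTTC) was searched as well.
Bst2 (chr16:18254968-18255217, minus strand): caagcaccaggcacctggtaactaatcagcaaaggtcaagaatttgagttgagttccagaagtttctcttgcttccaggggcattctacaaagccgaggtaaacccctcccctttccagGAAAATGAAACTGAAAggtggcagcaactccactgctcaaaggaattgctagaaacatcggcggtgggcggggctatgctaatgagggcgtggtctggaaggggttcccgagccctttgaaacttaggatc
The 2 matches overlap where the repeats run on. The motif is in 8 of 14 interferon promoters found (57.1%) and in 992 of 27457 promoters of all genes (3.61%).

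Antigen presentation genes were called in 16 of 18 measured members, 10 of them stable. For class I presentation, the peptide transporter Tap1 had levels of 8.08, 9.68 and 9.01 in amosite tumors, against 2.11, 4.57 and 5.11 in controls (4.99 ± 0.76, adjusted p = 0.00041), and the immunoproteasome subunits Psmb8 and Psmb9 rose by 3.83 and 3.82. Beta-2 microglobulin (B2m), the light chain of class I molecules, had levels of 13.66, 14.08 and 13.90 in amosite tumors, against 11.84, 12.56 and 12.32 in controls (1.64 ± 0.20, adjusted p = 9.3e-05). For class II, RT1-Da rose by 2.50, RT1-DMa by 2.98, RT1-DMb by 2.82 and the invariant chain Cd74 by 2.17. Class II genes of rats are near copies of each other, so that probe sets may share signal. Of 9 checkpoint and immune suppression genes 7 rose, 6 of them stable, among them arginase 1 (Arg1, 4.71 ± 1.46, adjusted p = 0.022), Cd200 (3.26), Cd276 (2.22), Vsir (2.53) and the "do not eat me" signal Cd47 (1.91) with its receptor Sirpa (2.13). Ctla4 had levels of 5.81, 5.93 and 6.14 in amosite tumors, against 5.96, 5.85 and 5.93 in controls and was not called. The listed checkpoint genes Cd274, Pdcd1, Pdcd1lg2, Lag3, Havcr2, Tigit and Btla had no probe set annotated to them alone and were not measured.

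Prostaglandin and leukotriene enzymes were called higher in 9 of 19 measured genes, 2 of them stable. Prostacyclin synthase (Ptgis) had levels of 11.29, 11.88 and 11.64 in amosite tumors, against 6.49, 6.74 and 6.62 in controls, and cyclooxygenase 1 (Ptgs1) had levels of 9.51, 10.09 and 8.89 in amosite tumors, against 5.41, 6.37 and 6.51 in controls. The tumors lay above the controls for both (4.99 ± 1.16, adjusted p = 0.0054 for Ptgis and 3.40 ± 0.74, adjusted p = 0.0036 for Ptgs1). Cyclooxygenase 2 (Ptgs2) had levels of 6.84, 7.30 and 4.57 in amosite tumors, against 3.79, 4.55 and 4.68 in controls, with tumor 3 among the controls (adjusted p = 0.3). Prostaglandin D2 synthase (Ptgds) had levels of 13.52, 12.36 and 2.31 in amosite tumors, against 0.01, 0.01 and 2.23 in controls, high in tumors 1 and 2 and at background in tumor 3, and its call was lost without tumor 1 (adjusted p = 0.12). Prostaglandin E synthase 2 (Ptges2) fell (-1.08 ± 0.18, adjusted p = 0.00081).

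Matrix genes rose in part, and collagen levels were already high in the control peritoneum. Of 32 measured fibroblast and matrix genes, 13 were upregulated, 5 of them stable. Type I collagen (Col1a1) had levels of 13.41, 13.20 and 13.53 in amosite tumors, against 12.22, 12.90 and 12.44 in controls, and type III collagen (Col3a1) had levels of 14.14, 14.20 and 14.15 in amosite tumors, against 13.33, 13.63 and 13.20 in controls. These collagens were not called (0.86 ± 0.70, adjusted p = 0.34 for Col1a1). The collagen crosslinking enzymes were higher: Plod2 had levels of 11.68, 11.54 and 12.24 in amosite tumors, against 8.15, 7.92 and 8.39 in controls (3.67 ± 0.66, adjusted p = 0.0012) and lysyl oxidase (Lox) had levels of 11.02, 12.21 and 12.79 in amosite tumors, against 8.07, 9.28 and 8.95 in controls (3.25 ± 0.88, adjusted p = 0.012). Biglycan (Bgn, 2.63), type V collagen (Col5a2, 2.52), type VI collagen (Col6a2, 2.19), fibronectin (Fn1, 2.29) and versican (Vcan, 3.05) rose. Periostin (Postn), a matrix protein of scars, had levels of 13.51, 12.73 and 12.66 in amosite tumors, against 11.58, 12.29 and 11.21 in controls and was not called. Fibroblast activation protein (Fap) had levels of 8.38, 7.03 and 8.21 in amosite tumors, against 8.11, 8.37 and 7.62 in controls, with overlapping groups.

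Proteases that open the matrix rose together with their inhibitors, in 16 of 28 measured genes, 10 of them stable. Membrane-type metalloproteinase Mmp14 had levels of 12.50, 12.43 and 12.92 in amosite tumors, against 9.56, 9.97 and 9.34 in controls (2.99 ± 0.61, adjusted p = 0.0025). Stromelysin 3 (Mmp11) had levels of 9.01, 8.62 and 9.54 in amosite tumors, against 3.52, 3.96 and 2.88 in controls (5.60 ± 0.74, adjusted p = 0.00016). The inhibitor Timp1 had levels of 11.65, 12.66 and 11.75 in amosite tumors, against 6.49, 7.68 and 6.79 in controls (5.03 ± 0.91, adjusted p = 0.0012), with all tumors above all controls as for the 2 proteases. The urokinase receptor (Plaur, 4.04), tissue plasminogen activator (Plat, 3.50), the shedding proteases Adam10 (2.10) and Adam17 (1.63), and cathepsins B and L (Ctsb, 2.04, and Ctsl, 2.32) were stable rises. Gelatinase B (Mmp9) and collagenase 3 (Mmp13) had levels of 6.92, 4.38 and 9.91 and of 6.68, 4.58 and 10.01 in the amosite tumors, against 0.01, 0.01 and 0.01 and 0.03, 1.22 and 1.39 in controls. They were highest in tumor 3, and both calls were lost with the floor (adjusted p = 0.39 and 0.36). Matrilysin (Mmp7) had levels of 14.85, 4.30 and 4.74 in amosite tumors, against 5.07, 4.93 and 4.91 in controls, high in tumor 1 alone among the amosite tumors. In MWCNT tumors Mmp7 ranged from 4.27 to 14.86. Of 15 measured hyaluronan and proteoglycan genes 7 rose. The hyaluronan receptor Cd44 had levels of 7.65, 11.76 and 11.63 in amosite tumors, against 7.10, 7.59 and 7.55 in controls (adjusted p = 0.049), close to the controls in tumor 1 and well above them in tumors 2 and 3. Syndecan 1 had levels of 11.59, 10.52 and 12.58 in amosite tumors, against 5.33, 6.04 and 6.45 in controls (5.62 ± 0.72, adjusted p = 0.00013), and the hyaluronan synthase Has2 was not called (0.46 ± 0.63, adjusted p = 0.58).

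TGF-beta and activins are growth and scarring signals that are stored in the matrix. Of 25 measured genes of this family 9 were upregulated and 1 was downregulated. Activin subunit beta B (Inhbb) had levels of 10.44, 11.23 and 12.06 in amosite tumors, against 5.50, 6.25 and 6.66 in controls (5.11 ± 0.63, adjusted p = 0.00011). Tgfb1 had levels of 6.16, 7.40 and 7.76 in amosite tumors, against 4.54, 5.10 and 3.84 in controls (2.61 ± 0.44, adjusted p = 0.00082). The latent TGF-beta binding protein Ltbp2 had levels of 7.46, 10.07 and 7.94 in amosite tumors, against 3.12, 4.11 and 2.59 in controls (5.21 ± 0.87, adjusted p = 0.00072), and the groups did not overlap for these genes. Activin subunit beta A (Inhba) had levels of 6.74, 8.82 and 10.20 in amosite tumors, against 6.23, 6.36 and 5.84 in controls, lowest in the epithelioid tumor 1 and highest in the sarcomatoid tumor 3. It was not called with all 3 tumors (2.44 ± 1.08, adjusted p = 0.088) and was called without tumor 1 (3.37, adjusted p = 0.031). The receptor Tgfbr1 missed the fold threshold (0.95 ± 0.27, adjusted p = 0.014), and the signal carrier Smad3 fell (-1.89 ± 0.44, adjusted p = 0.005).

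Among 41 measured growth factors and receptor tyrosine kinases, 11 were upregulated and 2 were downregulated, shares close to those of all genes (25.5% and 9.4%). Transforming growth factor alpha (Tgfa), a ligand of the EGF receptor, had levels of 8.79, 6.81 and 10.76 in amosite tumors, against 0.01, 2.35 and 3.79 in controls (6.73 ± 1.17, adjusted p = 0.00097, and 3.78 with the floor). Its receptor Egfr had levels of 9.35, 9.28 and 7.84 in amosite tumors, against 8.69, 8.78 and 8.61 in controls, with overlapping groups (0.13 ± 1.0, adjusted p = 0.93), as had the hepatocyte growth factor receptor Met (5.70, 6.34 and 6.70 in amosite tumors, against 5.09, 6.73 and 6.22 in controls). The receptors Flt3 (3.23) and Epha2 (2.77) and the lymphatic growth factor Vegfc (1.67) carried stable rises, while Axl (1.28) and its ligand Gas6 (1.78) were called and not stable. Vegfa had levels of 11.48, 8.84 and 11.45 in amosite tumors, against 10.63, 10.50 and 10.63 in controls, tumor 2 being the lowest sample, and was not called (0.00 ± 0.77, adjusted p = 1). Insulin-like growth factor 2 (Igf2) had levels of 13.52, 10.60 and 6.21 in amosite tumors, against 10.0, 9.83 and 9.53 in controls, above the controls in tumors 1 and 2 and below them in tumor 3.

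Of 21 measured genes of epithelial and mesenchymal state, 11 rose and 1 fell, the integrin Itgb6 (-5.37 ± 1.19, adjusted p = 0.0041). Of the rises 5 were stable, with 6 called after centring and 6 with the floor. Cadherin 11 had levels of 13.59, 12.07 and 10.75 in amosite tumors, against 5.22, 6.28 and 6.86 in controls (6.02 ± 1.06, adjusted p = 0.001) and P-cadherin (Cdh3) had levels of 10.03, 9.44 and 10.12 in amosite tumors, against 3.54, 4.46 and 4.48 in controls (5.70 ± 1.16, adjusted p = 0.0025). Vimentin (Vim), the filament protein of mesenchymal cells, had levels of 12.70, 13.80 and 14.09 in amosite tumors, against 11.47, 12.17 and 11.80 in controls (1.72 ± 0.36, adjusted p = 0.003). All tumors were above all controls for these genes. E-cadherin (Cdh1), the junction protein of epithelia, had levels of 10.62, 8.51 and 5.42 in amosite tumors, against 2.12, 3.29 and 2.83 in controls, and the epithelial surface antigen Epcam had levels of 10.97, 8.0 and 4.29 in amosite tumors, against 4.11, 2.78 and 3.56 in controls. Both were highest in the epithelioid tumor 1, lower in the biphasic tumor 2 and lowest in the sarcomatoid tumor 3, and neither passed the test. The mesenchymal factors Twist1 (8.56, 9.82 and 11.22 in amosite tumors, against 6.87, 7.06 and 7.19 in controls) and Snai1 (7.87, 8.86 and 9.37 in amosite tumors, against 7.13, 7.23 and 7.29 in controls) ran in the opposite order and were called, with differences of 2.83 for Twist1 and 1.49 for Snai1 that did not pass after centring (2.34, adjusted p = 0.074, and 1.0, adjusted p = 0.16).

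Of 21 measured tumor suppressor genes of mesothelioma, 6 were upregulated and 2 downregulated, shares close to those of all genes. After centring 3 were higher and 3 lower, and 2 rises and 1 fall were stable. Cdkn2a, which encodes the cell cycle inhibitor p16 and is often deleted in human mesothelioma, had levels of 6.55, 6.02 and 5.40 in amosite tumors, against 2.95, 3.98 and 4.09 in controls (2.32 ± 0.58, adjusted p = 0.0081), and the call was lost with the floor (adjusted p = 0.1). Nf2 had levels of 9.74, 8.94 and 9.73 in amosite tumors, against 9.85, 9.74 and 9.74 in controls (-0.30 ± 0.24, adjusted p = 0.34), and the deubiquitinase Bap1 had levels of 10.38, 10.34 and 10.24 in amosite tumors, against 10.90, 10.95 and 10.84 in controls (-0.58 ± 0.15, adjusted p = 0.0085). Neither passed both thresholds. The pocket protein Rbl1 rose (3.68 ± 0.29, adjusted p = 3.8e-06), while Rb1 fell (-1.09 ± 0.26, adjusted p = 0.006) and lost its call without tumor 1, where it missed the fold threshold (-0.92, adjusted p = 0.024). The ubiquitin ligase subunit Fbxw7, which marks cyclin E and Myc for breakdown, had levels of 4.46, 7.51 and 7.42 in amosite tumors, against 9.77, 9.35 and 9.24 in controls and fell (-2.99 ± 0.66, adjusted p = 0.0039), with tumor 1 the lowest. Array levels of RNA do not show whether a gene is mutated.

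In the Hippo pathway, which restrains growth through the coactivators Yap1 and Taz, 8 of 22 measured genes rose and 3 fell. Among all genes the shares were 25.5% and 9.4%. Without tumor 1 the counts were 5 and 3, after centring 3 and 4, and 2 rises and 3 falls were stable. Of all 14217 genes, 3549 and 1359 were called without tumor 1, and 2183 and 2400 after centring. Stable calls made up 13.6% and 7.92% of all genes. In these settings the rises were no more frequent than among all genes. The transcription factor Tead2 (3.85 ± 1.0, adjusted p = 0.0098) and the kinase Stk3 (2.32 ± 0.22, adjusted p = 1.5e-05) rose, while Tead4 (-2.43 ± 0.34, adjusted p = 0.00021) and the scaffold proteins Amot (-3.11 ± 0.89, adjusted p = 0.015) and Amotl1 (-3.09 ± 0.27, adjusted p = 9.4e-06) fell. The pathway targets Ccn1 (8.38, 9.72 and 9.21 in amosite tumors, against 6.85, 7.0 and 8.0 in controls) and Ccn2 (11.32, 12.82 and 13.60 in amosite tumors, against 11.12, 10.81 and 10.57 in controls) were not called.

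Of 18 measured p53 targets 6 rose and 2 fell, shares near those of all genes (25.5% and 9.4%). Of these calls 5 rises and 1 fall were stable, against 13.6% and 7.92% of all genes. The pro-apoptotic Bbc3 had levels of 8.65, 9.55 and 9.02 in amosite tumors, against 6.84, 6.61 and 6.43 in controls (2.45 ± 0.24, adjusted p = 2.1e-05). The kinase genes Plk2 (2.18) and Plk3 (2.55), Sesn2 (1.74) and Zmat3 (1.49) rose. Cyclin G1 (Ccng1, -2.39 ± 0.32, adjusted p = 0.00019) and Sesn1 (-1.78 ± 0.59, adjusted p = 0.031) fell. The cell cycle inhibitor Cdkn1a had levels of 8.43, 9.39 and 9.55 in amosite tumors, against 9.09, 9.85 and 9.17 in controls and Mdm2 had levels of 9.55, 9.99 and 10.45 in amosite tumors, against 10.28, 10.42 and 10.34 in controls, with overlapping groups and no call.

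Of 23 immediate early genes 9 were upregulated and 1 was downregulated. Of the rises 4 were stable, with 4 called after centring and 12 without tumor 1, and with the probe set of the largest fold change 3 genes were lower. The oncogene Myc had levels of 10.04, 9.82 and 10.71 in amosite tumors, against 7.35, 6.87 and 7.13 in controls (3.07 ± 0.29, adjusted p = 1.7e-05). Junb (2.09), Fosl2 (2.62), Ier5 (2.28) and Egr2 (2.38) also rose. Fos (0.58 ± 0.69, adjusted p = 0.53) and Jun (0.71 ± 0.35, adjusted p = 0.12), the classical members of AP-1, were not called. Fosl1 had levels of 5.62, 7.08 and 11.19 in amosite tumors, against 3.80, 4.47 and 4.18 in controls, highest in the sarcomatoid tumor, and it passed the test without tumor 1 (4.99, adjusted p = 0.023) and not with it (adjusted p = 0.054).

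The study followed 6 cancer-related genes by RT-qPCR in a larger set of its tumors. The panel was chosen with these arrays in view, so that their array values are no independent evidence of direction. In the amosite tumors 4 of them fell and 1 rose. Plaat1, listed under its older name Hrasls and encoding a phospholipase that restrains Ras, had levels of 5.52, 5.65 and 6.34 in amosite tumors, against 10.74, 10.81 and 10.67 in controls (-4.90 ± 0.39, adjusted p = 4.4e-06). The nuclear receptor Nr4a1 had levels of 7.13, 5.89 and 5.90 in amosite tumors, against 10.10, 10.22 and 10.23 in controls (-3.88 ± 0.46, adjusted p = 8.4e-05). The receptor tyrosine kinase Ret had levels of 9.46, 6.16 and 6.18 in amosite tumors, against 12.35, 12.12 and 11.88 in controls (-4.85 ± 1.59, adjusted p = 0.029), with tumor 1 nearer the controls than the other two. The receptor Fgfr4 had levels of 7.0, 5.40 and 4.59 in amosite tumors, against 8.63, 8.07 and 8.26 in controls (-2.66 ± 0.53, adjusted p = 0.0022). The 3 tumors were below the 3 controls for each of these genes. Rnd3, a small GTP-binding protein, had levels of 9.85, 10.07 and 11.04 in amosite tumors, against 7.81, 7.83 and 8.15 in controls (2.39 ± 0.53, adjusted p = 0.0041). Gadd45b, a stress gene of growth arrest, had levels of 8.50, 8.91 and 7.90 in amosite tumors, against 8.13, 8.30 and 8.12 in controls, with overlapping groups and no call (0.26 ± 0.60, adjusted p = 0.75).

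The study also listed genes implicated in mesothelioma from these samples, of which 33 had a probe set of their own. Here 22 were upregulated and 4 downregulated, which is no independent evidence either since the list was chosen on these samples. Beside Wt1, Msln, Spp1, Foxm1, Tyms, Top2a, Cdh2, Vim, Snai1 and Adam10, the upregulated members were the kinases Src (2.84 ± 0.35, adjusted p = 0.0001) and Lyn (3.40 ± 0.51, adjusted p = 0.00037), Flt3, Hdac1, Hsp90b1, Ddx51, Tubb2a, Por, Pias3, Prr5, Traf7 and Rassf1, with differences of 1.09 to 2.37 for the last 7. The downregulated members were the muscle-rich tubulins Tuba8 (-7.39 ± 0.23, adjusted p = 1.1e-09) and Tuba4a (-3.56 ± 0.55, adjusted p = 0.00047), the methylmalonyl-CoA mutase Mmut (-1.69 ± 0.22, adjusted p = 0.00015) and the autophagy kinase Ulk2 (-1.36 ± 0.26, adjusted p = 0.0018). Inhba, Top2b (0.96), Sp1 (0.95), Bcl10 (0.93), Tube1 (0.84), Ep300 (0.72) and Tp63 were not called. By the probe set of the largest fold change for each gene, 27 were upregulated and 5 downregulated, and Inhba (3.22 ± 1.04, adjusted p = 0.027), Top2b (1.34 ± 0.22, adjusted p = 0.00063), Sp1 (1.80 ± 0.22, adjusted p = 8.5e-05), Tube1 (1.52 ± 0.30, adjusted p = 0.0019) and Ep300 (1.16 ± 0.23, adjusted p = 0.0022) then passed as rises. Of further genes that the study names, interleukin-6 (Il6) had levels of 3.87, 5.27 and 4.43 in amosite tumors, against 0.02, 0.00 and 0.12 in controls and was called (4.47 ± 1.31, adjusted p = 0.017), a call that was lost with the floor (0.09, adjusted p = 1). Also called were lamin B1 (Lmnb1, 2.37 ± 0.27, adjusted p = 5.9e-05) and the integrin-linked kinase (Ilk, 1.14 ± 0.19, adjusted p = 0.00082). Csf2, Ifng, Cxcr1, Esr1, Pgr, Apc, Sfrp1, Wif1, Igf2bp1, Nop2 and the reference gene Hprt1 (0.77 ± 0.21, adjusted p = 0.012) were not called.

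Genes of protein folding in the endoplasmic reticulum were upregulated in 13 of 21 measured members, 11 of them stable. The disulfide isomerase Pdia4 had levels of 11.64, 12.17 and 11.99 in amosite tumors, against 8.52, 8.77 and 8.55 in controls (3.32 ± 0.29, adjusted p = 1.1e-05). The chaperone Hspa5, also called BiP, had levels of 12.83, 13.0 and 12.80 in amosite tumors, against 11.13, 11.28 and 11.18 in controls (1.68 ± 0.25, adjusted p = 0.00039). The tumors lay close together and above the controls for both. Pdia3 (2.69), Hsp90b1 (2.24) and Creld2 (2.48) rose, while the stress transcription factors Ddit3 (8.36, 9.61 and 9.08 in amosite tumors, against 8.04, 8.01 and 8.15 in controls) and Atf4 (11.70, 12.17 and 12.27 in amosite tumors, against 12.51, 12.66 and 12.61 in controls) were not called. Atf4 was lower in each tumor than in any control, by less than a factor of 2.

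Both death-promoting and death-blocking genes rose. Of 23 measured apoptosis regulators 11 were upregulated, 9 of them stable. Caspase 8 (Casp8), which starts death receptor signaling, had levels of 9.28, 9.69 and 9.30 in amosite tumors, against 5.02, 5.42 and 5.17 in controls (4.22 ± 0.33, adjusted p = 3.8e-06). The pro-death Bok (2.85), Bcl2l11 (1.90), Bak1 (1.55) and Apaf1 (1.65) and the anti-death Bcl2a1 (3.02) and Bcl2l1 (1.64) rose. Bcl2 itself (0.82 ± 0.55, adjusted p = 0.25) and Mcl1 (0.47 ± 0.24, adjusted p = 0.13) did not pass the test.

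Glycolysis genes divided by isoform. Of 27 measured genes 10 rose and 5 fell, against 9 and 9 after centring. The glucose transporter of proliferating cells Slc2a1 had levels of 9.19, 8.72 and 10.81 in amosite tumors, against 5.84, 6.45 and 6.38 in controls (3.35 ± 0.99, adjusted p = 0.018), whereas the insulin-regulated Slc2a4 had levels of 4.79, 7.32 and 6.29 in amosite tumors, against 12.91, 12.79 and 12.92 in controls. The liver-type phosphofructokinase Pfkl rose (2.71 ± 0.40, adjusted p = 0.00032), and the muscle-type Pfkm had levels of 9.31, 8.48 and 8.70 in amosite tumors, against 13.15, 13.13 and 13.10 in controls. The non-muscle Pgam1 had levels of 12.50, 12.80 and 13.60 in amosite tumors, against 10.35, 10.64 and 10.58 in controls (2.44 ± 0.28, adjusted p = 6.1e-05), against the fall of Pgam2 given above. Adrenomedullin (Adm, 3.72 ± 0.66, adjusted p = 0.0011), hexokinase 1 (Hk1, 2.55), enolase 1 (Eno1, 2.19) and the hypoxia factor Hif1a (1.61) rose. Lactate dehydrogenase A (Ldha), a hypoxia target, had levels of 12.78, 12.52 and 13.19 in amosite tumors, against 13.50, 13.54 and 13.48 in controls, and carbonic anhydrase 9 (Car9) had levels of 9.52, 6.95 and 6.12 in amosite tumors, against 4.88, 4.62 and 5.32 in controls. Neither was called.

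Enzymes of DNA and RNA methylation rose in 8 of 28 measured genes and fell in 1, shares near those of all genes. The maintenance methyltransferase Dnmt1 had levels of 9.41, 8.92 and 9.23 in amosite tumors, against 6.75, 7.03 and 6.43 in controls (2.45 ± 0.35, adjusted p = 0.00027), and its partner Uhrf1 had levels of 7.82, 7.16 and 8.15 in amosite tumors, against 4.05, 4.31 and 3.73 in controls (3.68 ± 0.54, adjusted p = 0.00034). Both were also members of the DNA replication list. The histone methyltransferase Ezh2 (2.44 ± 0.31, adjusted p = 0.00013), the deacetylase Hdac1 (2.17), the RNA cytosine methyltransferases Trdmt1 (1.74) and Nsun5 (1.05), the m5C reader Alyref (1.64) and the m6A writer subunit Virma (1.31) rose. The m6A methyltransferase Mettl3 had levels of 9.04, 9.38 and 9.41 in amosite tumors, against 8.84, 8.53 and 8.48 in controls, above the controls by less than the fold threshold (0.66 ± 0.19, adjusted p = 0.018), and the demethylases Alkbh5 (-0.78 ± 0.25, adjusted p = 0.025) and Fto (0.70 ± 0.26, adjusted p = 0.05) missed it too. The de novo methyltransferase Dnmt3a had levels of 9.28, 7.38 and 7.12 in amosite tumors, against 8.49, 8.64 and 8.65 in controls. Tumor 1 was above the controls and the other two below, and Dnmt3a was called lower without tumor 1 (-1.34, adjusted p = 0.035). The 5mC oxidase Tet2 fell (-1.09 ± 0.31, adjusted p = 0.014), and its call was lost without tumor 1 (adjusted p = 0.053).

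Leaving out amosite tumor 1 moved several gene groups. The median difference from the controls became 3.79 without tumor 1, against 2.83 with it, for the interferon list, and 3.57 against 2.87 for macrophages. The medians of mesothelial genes were 4.46 without tumor 1 and 5.87 with it, and those of the pancreas list were 0.51 and 2.78. The mitosis list hardly moved. Of the 27 pancreas genes the elastase Cela2a was the 1 called with all 3 tumors (8.97 ± 3.12, adjusted p = 0.037), and this call was lost without tumor 1 (adjusted p = 0.13) and with the floor (adjusted p = 0.32). Chymotrypsinogen B1 (Ctrb1) had levels of 19.10, 7.51 and 7.52 in amosite tumors, against 7.16, 7.32 and 7.52 in controls. In MWCNT tumors Ctrb1 ranged from 7.10 to 18.89. Trypsin inhibitor Spink1 had levels of 11.53, 5.12 and 5.02 in amosite tumors, against 6.40, 6.43 and 6.93 in controls, so that it was not called with tumor 1 (0.64 ± 1.32, adjusted p = 0.72) and was called lower without it (-1.51, adjusted p = 0.0038). Of 15 measured liver genes 1 was called higher and 1 lower (Apoa2 and Tat, both below log2 5 in every sample), and albumin (Alb) had levels of 7.09, 9.60 and 7.30 in amosite tumors, against 4.26, 6.11 and 6.68 in controls.

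**Figure D4:**
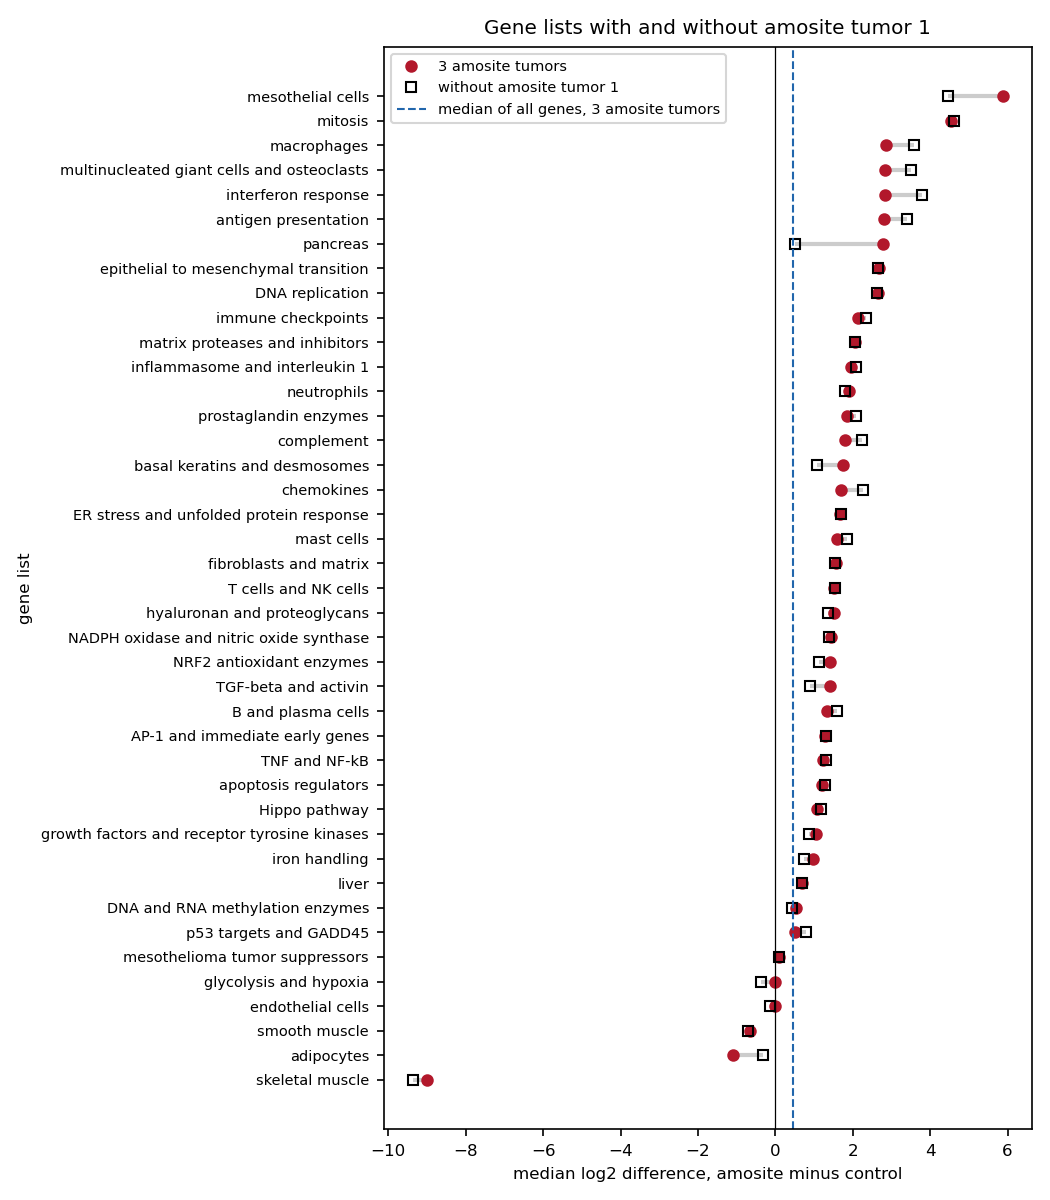
Median log2 difference of amosite minus control (horizontal axis) of 41 gene lists (rows), with all 3 amosite tumors as red points and without amosite tumor 1 as open squares. The dashed line is the median of all 14217 genes with all 3 tumors, 0.46. Pancreas and mesothelial lists move down without tumor 1, interferon and macrophage lists move up, and mitosis stays in place.

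Differences among the 3 amosite tumors are given as a description, since among the amosite tumors each type has 1 array, and no test was made. Over probe sets, amosite tumors correlated with each other at r of 0.8483 to 0.9379 and with controls at 0.6837 to 0.7418, while controls correlated with each other at 0.9691 to 0.975. Of genes at a log2 level of 8 or more in the tumor concerned, 225 of 7822 exceeded both other amosite tumors by more than 3 in the epithelioid tumor 1, against 24 of 7804 in the biphasic tumor 2 and 20 of 7457 in the sarcomatoid tumor 3. Of the 8 genes that stood out most in tumor 1, 4 are on the pancreas list (Ctrb1, Cela2a, Pla2g1b and Prss1). The others were Cst12, with levels of 17.80, 5.84 and 5.64 in tumors 1, 2 and 3, the trypsin-family gene Prss3b (16.06, 4.58 and 4.67), Cuzd1 (16.07, 5.71 and 5.43), a protein of the acinar cell granule, and Mmp7.

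In the biphasic tumor 2 the genes that stood out were the secreted protease Klk6 (4.61, 9.99 and 3.75), the anion exchanger Slc26a3 (3.54, 9.36 and 3.25), the adhesion receptor Adgrd1 (6.43, 12.77 and 7.54), the elastic fiber protein Mfap5 (7.49, 13.63 and 8.46), the aryl hydrocarbon receptor repressor Ahrr (6.83, 12.04 and 6.89), the ether lipid enzyme Agmo (5.79, 10.21 and 6.25), Lrrn4cl (5.23, 10.94 and 7.19) and the uncharacterised LOC102555145 (2.84, 12.01 and 2.97). In the sarcomatoid tumor 3 they were Poteml2 (3.54, 2.38 and 10.76), the muscle myosin chaperone Unc45b (4.65, 5.0 and 11.78), the endogenous retroviral envelope gene Ervv-2 (6.26, 5.68 and 12.82), corneodesmosin (Cdsn, 0.36, 4.13 and 10.66), the potassium channels Kcnj15 (4.47, 4.82 and 9.84) and Kcnn3 (5.66, 5.73 and 10.68) and the placental prolactin family genes Prl8a9 (4.34, 5.70 and 10.16) and Prl6a1 (3.67, 4.20 and 8.58). In both cases the tumor concerned stood several log2 units above the other two. Unc45b had levels of 12.36, 12.07 and 12.30 in the controls, so that tumor 3 was close to them, whereas other muscle genes such as Myh4 were at background in tumor 3.

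Amosite tumors were then set against the MWCNT tumors, to find where a tumor of amosite differed from tumors of other fibers. Of 31042 probe sets, 0 (0%) were called in limma, and the lowest adjusted p was 0.8033. At an unadjusted p below 0.05 there were 1586 probe sets (5.109%). A p that misses the threshold does not show that the tumors are alike, and amosite tumors correlated with MWCNT tumors at r of 0.8233 to 0.9511, a range that overlaps that among amosite tumors. Without amosite tumor 3, 9 probe sets were called higher and 3 lower.

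The genes with the lowest p are given as values. Secreted frizzled-related protein 2 (Sfrp2), a modulator of Wnt signaling, had levels of 12.46, 13.10 and 11.31 in amosite tumors, 6.73 to 11.89 in the MWCNT tumors and 7.75, 8.21 and 7.55 in controls. In 2 of the 3 amosite tumors it exceeded every MWCNT tumor, with a difference of 2.87 ± 0.57, unadjusted p = 0.0004, adjusted p = 0.97. Bst2 had levels of 13.69, 13.20 and 13.36 in amosite tumors, 11.41 to 12.81 in MWCNT tumors and 8.32, 8.94 and 8.87 in controls, a difference of 1.31 ± 0.28, unadjusted p = 0.00061, adjusted p = 0.97. All 3 amosite tumors exceeded all 8 MWCNT tumors for Bst2, though by little. LOC100909866 (0.95), Pm20d2 (0.99) and Pdzrn4 (1.42) followed. The autophagy protein syntaxin 17 (Stx17) had levels of 4.44, 4.13 and 4.12 in amosite tumors, 5.05 to 5.48 in MWCNT tumors and 5.42, 5.06 and 5.25 in controls, a difference of -1.01 ± 0.15, unadjusted p = 2.6e-05, adjusted p = 0.8. These levels are near background. Lmo4 had levels of 10.84, 11.09 and 11.16 in amosite tumors, 11.45 to 12.75 in MWCNT tumors and 11.45, 11.30 and 11.28 in controls, a difference of -0.99 ± 0.21, unadjusted p = 0.00067, adjusted p = 0.97. Srp72 (-0.68), Cda (-1.90) and Zbtb38 (-0.86) were the other genes on the lower side, and each of these differences had an adjusted p of 0.8 or more.

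**Figure D5:**
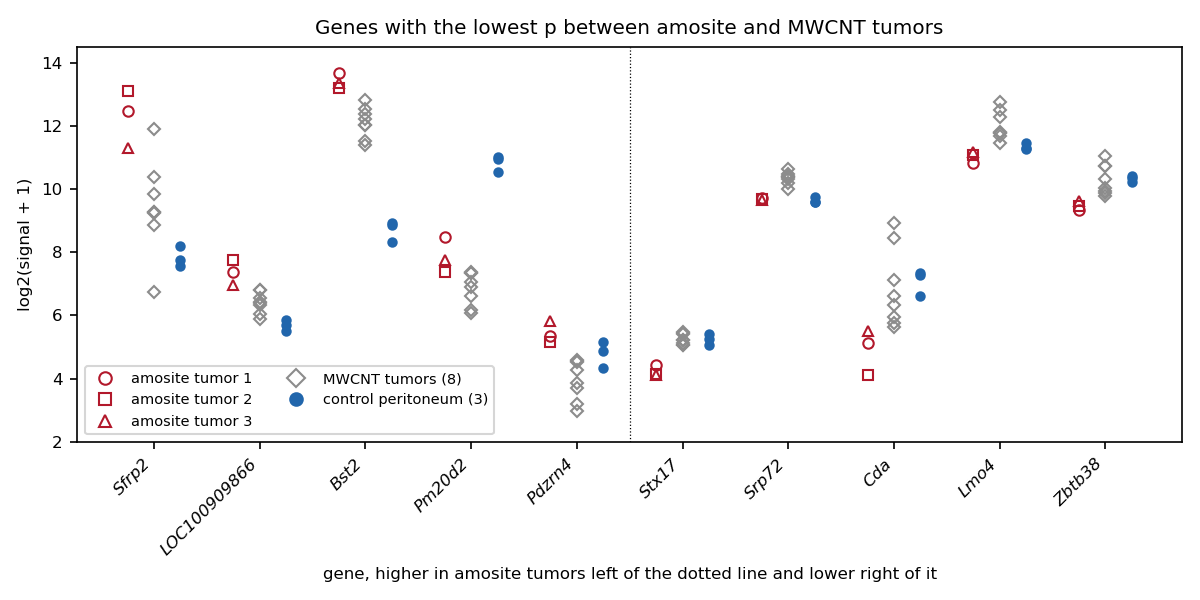
Log2(signal + 1) (vertical axis) of the 5 genes with the lowest p on each side between amosite and MWCNT tumors, with the amosite tumors as red open symbols, the 8 MWCNT tumors as grey diamonds and the controls as blue points. None passed the adjusted threshold. For each gene other than Sfrp2 and Pm20d2 the 3 amosite tumors lie wholly to one side of the 8 MWCNT tumors. The genes were picked by this same comparison, which favors such a separation.

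The mean level of the mitosis list was 8.99, 8.92 and 9.29 in amosite tumors, 7.54 to 10.51 in MWCNT tumors and 4.75, 4.81 and 4.64 in controls. The interferon list had means of 7.92, 10.85 and 9.24 in amosite tumors, 7.85 to 10.38 in MWCNT tumors and 6.21, 6.89 and 6.87 in controls. The biphasic amosite tumor 2 stood above every MWCNT tumor in the interferon list, and the other two were within their range. Mesothelin had levels of 12.83, 13.03 and 11.41 in amosite tumors (Msln), within the 7.92 to 13.38 of the MWCNT tumors. Il1rl1 had levels of 8.77, 11.60 and 13.30 in amosite tumors, 5.29 to 11.42 in MWCNT tumors and 2.84, 3.43 and 2.38 in controls, a difference of 2.13 ± 1.24, unadjusted p = 0.11, adjusted p = 0.97. In tumors 2 and 3 it exceeded all MWCNT tumors, and in tumor 1 it did not. Of 33 mitosis genes 0 had an unadjusted p below 0.05 in this comparison, and of 20 macrophage genes 0 had. The largest shares, picked with all lists seen, were 6 of 25 for TGF-beta and activin, 5 of 23 for the immediate early genes and 3 of 15 for endothelial cells. The 5.109% given above is counted over probe sets and not over genes, and 0 of these genes were called.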

How the data were processed

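Total RNA of flash-frozen amosite tumors and peritoneal tissue was hybridised to GeneChip Rat Genome 230 2.0 arrays after 3' IVT Plus labeling. The deposited values are signal intensities on a linear scale, normalized by the authors with PLIER in the Transcriptome Analysis Console, with no detection calls. Each array has 31099 probe sets, of which 57 control probe sets were removed. The other 31042 intensities were turned into log2(signal + 1) values, with no further normalization. In limma 3.58.1 (R 4.3.3), 1 linear model with a mean for each inducer was fitted to all 14 arrays, so that all groups share the estimate of the spread, and amosite was set against control and against the mean of the 3 MWCNT group means. P-values were adjusted by Benjamini-Hochberg over 31042 probe sets, and a call needed more than a 2-fold change with an adjusted p under 0.05. The methods name ANOVA, which was run as the alternative without moderation of the variance.

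By the platform annotation, 20826 probe sets had 1 gene symbol, 436 had several and 9780 had none. Symbols were updated by gene ID through RefSeq, where 20758 were found. For each gene the brightest probe set over all arrays was used among those of that gene alone, which gave 14217 genes, 4525 of them with more than 1 probe set. Promoters were taken from RefSeq on GRCr8, and 27457 promoters were searched. Genes named are first the 12 largest rises and falls by the fold change with log2 signals below 5 raised to 5. These were taken among genes that kept their call without amosite tumor 1 and with that floor, and whose groups do not overlap. The others are the leading called and defining members of each list and genes that the study names. Also named are the 5 genes with the lowest p on each side against MWCNT tumors, and 8 genes for each amosite tumor. Other list members named were chosen with their values seen. The members and lists were chosen with earlier results of these data known. Array replicates are separate animals for the tumors. The titles call tumor and control samples alike biological replicates, and the study lists each under its own identifier. For the controls separate animals are not stated in so many words. The p-values measure the spread between samples within groups, pooled over all 14 arrays and not over the amosite and control arrays alone. Alternatives were other normalizations, filters, pseudocounts and variance models, the probe set of the largest fold change for each gene, the replicate number as a block, and leaving out each array. Scripts were tested on simulated data.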

Additional observations from a re-analysis of the deposited data

Results flagged for a closer look

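Lmo4, a LIM domain protein, was below every control in the 3 amosite tumors and above every control in the 8 MWCNT tumors, and the difference between amosite and MWCNT tumors was -0.99 on the log2 scale. Its levels were 10.84, 11.09 and 11.16 in amosite tumors, 11.45 to 12.75 in MWCNT tumors and 11.45, 11.30 and 11.28 in controls, so that the lowest MWCNT tumor was barely above control 1. The direct comparison did not pass in limma (adjusted p = 0.97), and neither did amosite against control (-0.31, adjusted p = 0.35). After centring, Lmo4 differed by -0.80 between amosite tumors and controls (adjusted p = 0.024), which is below the fold threshold. Lmo4 was named above for its low p between amosite and MWCNT tumors, so this split is no separate evidence. The levels are those of the brightest of its 5 probe sets, and 0 of these were called against controls.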

How the results depend on the processing

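With amosite against control, 6928 probe sets were called higher and 2953 lower. Quantile normalization gave 4525 higher and 4562 lower, centring on the array median 4013 and 5407, and an adjusted p below 0.001 gave 2550 and 1426. By gene, 3623 were called higher and 1336 lower, against 2183 and 2400 after centring and 1451 and 688 at the stricter p. The other alternatives kept these counts within 1.5 times. Leaving out 1 array at a time gave 5922 to 6734 probe sets higher and 2646 to 2999 lower (3140 to 3549 and 1204 to 1359 genes). Against MWCNT tumors, 0 probe sets were called with all arrays. Leaving out 1 array at a time gave 0 to 9 higher and 0 to 3 lower, the calls coming from the setting without amosite replicate 3. With log2 signals below 5 raised to 5 and amosite replicate 1 left out, an alternative chosen after seeing the data, 2 were called higher.

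Of 267 called genes named in the text, 110 kept the call under every alternative, 116 at an adjusted p below 0.001, 251 without amosite replicate 1 and 240 with the floor at 5. Without amosite replicate 2 or 3, 229 and 239 kept it. Without control replicate 1, 2 or 3, 230, 248 and 236 kept it. Spink1 turned to -1.51 without amosite replicate 1, also with the floor or without MWCNT D replicate 2, and was 1.74 without amosite replicate 3. Pla2g1b turned to -1.52 without both arrays with pancreatic signal. Prl6a1 ranged from -1.17 without amosite replicate 3 to 1.29 without amosite replicate 1. The cause was not tested. With the probe set of the largest fold change for each gene, a choice that favors calls, 4130 genes were higher and 1506 lower. Of 344 counts of list members under alternatives, 55 moved by more than 1.5 times.

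The replicate number as a block gave 6904 probe sets higher and 2927 lower, with 265 of the 267 named calls kept. Deviations of same-numbered amosite and control samples correlated at 0.04, 0.07 and -0.06. With 3 samples in a group, these values cannot decide whether same-numbered samples share more than a number.

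With 3 arrays in a group and controls near background for many genes (787 called rises had a control mean below log2 5), the size of such rises depends on the floor.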
